A study of Homo sapiens with 6 samples.

Results

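Notch signaling passes between touching cells. A Jagged or Delta-like ligand on one cell binds a NOTCH receptor on its neighbor, ADAM proteases and then γ-secretase cut the receptor, and the freed intracellular domain enters the nucleus. There it joins RBPJ, the DNA-binding protein of the pathway, and a Mastermind-like (MAML) coactivator to switch on HES and HEY genes, which encode transcriptional repressors. In breast cancer the pathway is linked to self-renewal.

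The genes described here are 10 members of this pathway, chosen by name, of 19792 genes in the deposited RNA-seq table. They are the receptors NOTCH1, NOTCH2 and NOTCH3, the ligands JAG1 and JAG2, the targets HEY1, HES1 and HES4, the nuclear factor RBPJ and the glycosyltransferase LFNG. RBPJ and LFNG are therefore neither receptors, ligands nor HES/HEY targets. All 10 symbols were found in the table. Earlier results of these data were known when the members were picked, so their levels are a description and were not tested.

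The cells were BT-549, a human triple-negative breast cancer (TNBC) line, carrying a puromycin-resistant vector with a WDR5 shRNA that doxycycline (DOX) switches on. WDR5 is a core subunit of the COMPASS complexes that methylate histone H3 at lysine 4. Libraries came from 3 cultures with vehicle (0.1% DMSO) and 3 cultures with DOX (500 ng/ml), all harvested after 7 days, and both groups carried the shRNA. An shRNA control line given DOX was not analysed here. The value used is the authors' mean normalized count, 1 number for each gene over all 6 libraries. It cannot separate vehicle from DOX, it carries no replicate error, and the depth of each library is unknown from it. The authors' fold changes and p-values were not used, so nothing below compares DOX with vehicle.

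The table's levels were those of mesenchymal cells with little RNA of the hormone receptors. VIM, FN1, CDH2 and ZEB1, the mesenchymal markers, lay between the 86.5 and the 99.8 percentile of levels per kilobase of all genes with a gene model. The estrogen and progesterone receptor genes ESR1 and PGR had mean normalized counts of 0.790 and 0.801, whereas ERBB2 was at 1221. EPCAM, KRT5 and KRT14 were at 7.11 or lower, and CDH1, KRT8 and KRT18 at 59.6, 57.3 and 435 mean normalized counts. Per kilobase, KRT18 and ERBB2 lay at the 66.3 and the 63.2 percentile. The other epithelial markers, ESR1 and PGR lay at the 35.2 percentile or lower. The blood cell marker PTPRC had a mean normalized count of 44.7 and the endothelial marker PECAM1 one of 2.86. WDR5 itself had a mean normalized count of 1143 over both groups, which does not check the silencing.

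Since RNA fragments come from the whole length of a transcript, levels were compared between genes per kilobase (kb), and undivided counts are given for each gene and serve for thresholds. The count was divided by the length of the gene's merged exons in GENCODE 44 (GRCh38), the build that the authors name for the alignment. Of the 10 genes, 9 reached a mean normalized count of 10, as did 68.5% of all listed genes. A count of 1000 was reached by 5 members, compared with 27.9% of all listed genes. The members' median level was 216 per kb, and the median of the 18626 listed genes with a gene model was 49.4 per kb. The members above that median were 7 of the 10, and NOTCH1, JAG2 and LFNG were the others. The members are not whole families, so their median does not stand for the pathway. Median levels were 134 per kb for the 4 receptors, 16.7 for the 5 ligands and 0.727 for the 3 fringe glycosyltransferase genes. They were 59.8 per kb for the listed HES and HEY genes, 280 for RBPJ and its nuclear partners, and 148 over 53 listed pathway genes.

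**Figure D1:**
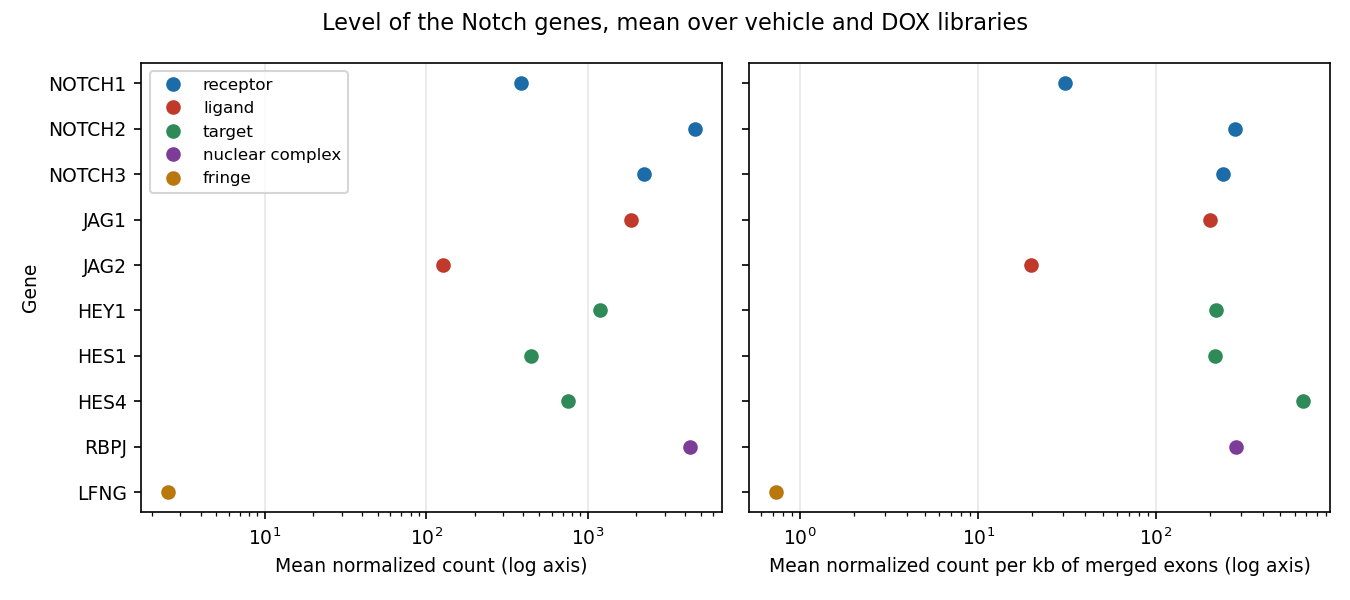
Level of each of the 10 Notch genes as the authors' mean normalized count over all 6 libraries (left) and as the same count per kb of merged exons (right), both on log axes. Each point is 1 gene colored by its role, with no error since single libraries were not analysed. LFNG stands far to the left in both panels, at 2.50 and 0.727.

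**Figure D2:**
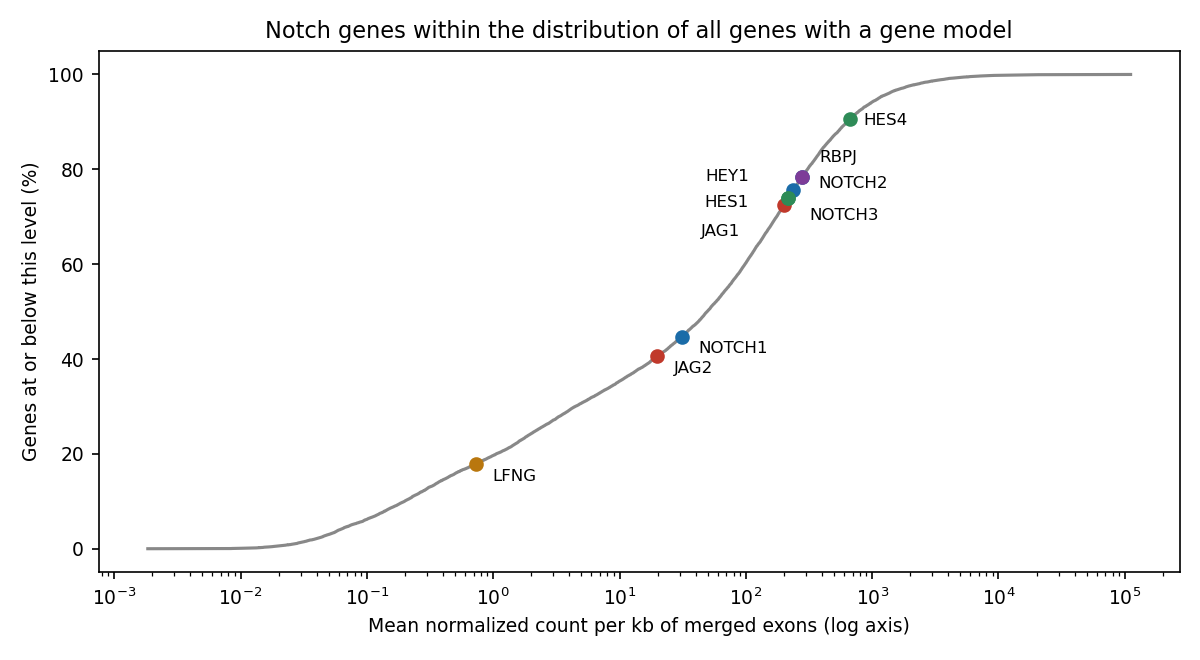
Cumulative distribution of the level per kb (log axis) over the 18626 genes with a gene model, with the 10 Notch genes marked on it. A cluster of 6 members lies between 199.9 and 279.8 per kb, HES4 lies above them, and NOTCH1, JAG2 and LFNG lie below the median of 49.4 per kb.

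The receptors are single-pass proteins that serve as both surface sensors and, once cut, transcriptional coactivators. NOTCH2, on chromosome 1 from 119911553 to 120100779, had a mean normalized count of 4641. Per kb of merged exons it was at 277, higher than 78.3% of the other genes with a gene model. NOTCH3, on chromosome 19 from 15159038 to 15200995, had a mean normalized count of 2226 and a level of 237 per kb. NOTCH1, on chromosome 9 from 136494433 to 136546048, had a mean normalized count of 388 and a level of 31.0 per kb, at the 44.7 percentile. NOTCH1 was thus the lowest of the receptors described, with NOTCH2 8.95-fold and NOTCH3 7.64-fold higher per kb. The fourth receptor of the family, NOTCH4, which is best known from endothelial cells, was at 7.53 mean normalized counts.

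Of the summed level of the 4 receptors per kb, NOTCH2 held 50.8%, NOTCH3 43.4%, NOTCH1 5.67% and NOTCH4 0.142%. NOTCH1 kept a small share whichever length was used, from 5.07% with the coding length to 5.76% with the canonical transcript. The order of NOTCH2 and NOTCH3 is less firm in size. NOTCH2 was 1.17-fold above NOTCH3 per kb of merged exons and 1.96-fold above it per kb of coding sequence. The RNA of NOTCH2 is also shared in part with near-identical copies. Of the 11376 stretches of 50 bases in its canonical transcript, 553 (4.86%) occur in transcripts of other genes, most of them the NOTCH2NL and NBPF genes of chromosome 1. None of the 50-base stretches of NOTCH1 or NOTCH3 did so.

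The ligands are membrane proteins of the signal-sending cell. JAG1, on chromosome 20 from 10637684 to 10673999, had a mean normalized count of 1859 and a level of 199.9 per kb. JAG2, on chromosome 14 from 105140982 to 105168824, had a mean normalized count of 127 and a level of 19.9 per kb. JAG1 was 10.0-fold above JAG2 per kb of merged exons and 14.8-fold above it per kb of coding sequence. The Delta-like genes were lower still. DLL3, which acts mainly inside the cell that makes it, was at 16.7 per kb, close to JAG2, and DLL1 was at 5.55 per kb. DLL4, a ligand of endothelial cells, had a mean normalized count of 0.995.

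JAG1 alone held 82.5% of the summed ligand level per kb, followed by JAG2 with 8.22% and DLL3 with 6.89%. With the other lengths, the share of JAG1 lay between 86.3% and 88.0%. An unnamed gene on the same strand overlaps 7.33% of the exon bases of JAG2, and 7.35% of the 50-base stretches in the canonical transcript of JAG2 occur in it as well. The authors' handling of such reads is not given in the sources used here.

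Fringe enzymes add sugars to the NOTCH extracellular domain and shift its preference between Delta-like and Jagged ligands. LFNG, on chromosome 7 from 2512529 to 2529177, was the only member under a mean normalized count of 10, at 2.50. Its level was 0.727 per kb, at the 17.9 percentile. MFNG was also low, at 1.07 mean normalized counts. RFNG, the remaining fringe gene, was at 279 mean normalized counts and 72.2 per kb, which was 99.3-fold above LFNG and 98.5% of the summed fringe level. POFUT1, which adds the first fucose that fringe enzymes extend, was at 503 per kb.

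HES1 and HES4 encode basic helix-loop-helix repressors, and HEY1 encodes a related repressor of the same class that differs in its basic, DNA-binding region. HES4, on chromosome 1 from 998962 to 1000172, had a mean normalized count of 752 spread over 1.118 kb of exons. At 673 per kb it was the highest of the 10 members on that scale, at the 90.7 percentile. HES1, on chromosome 3 from 194136148 to 194138732, had a mean normalized count of 443 and a level of 215 per kb. HEY1, on chromosome 8 from 79762371 to 79767857, had a mean normalized count of 1189. Its merged exons span 5.487 kb and its level was 217 per kb, next to that of HES1. Dividing by the 2197 bases of the canonical transcript instead gave 541 per kb for HEY1, and dividing by its coding length gave 1304 per kb, above HES4 at 1134. The place of HEY1 among the targets therefore depends on the transcript in use, which these values do not show.

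Among the 10 HES and HEY genes, 5 reached a mean normalized count of 10, namely HES1, HES4, HES6, HES7 and HEY1. That count was reached by 68.5% of all listed genes. HES6, which is known to act against HES1, was at 298 per kb. HES7, a gene of the segmentation clock, was at 59.8 per kb. HES2, HES3, HEY2 and HEYL had mean normalized counts from 0.172 to 2.83, and HES5 was not in the table. HES4 held 45.9% of the summed HES and HEY level per kb, HES6 20.4%, HEY1 14.8% and HES1 14.7%. Per kb of the canonical transcript, HES4 held 39.2% and HEY1 25.0%. NRARP, a feedback inhibitor that is itself a Notch target, was at 13.9 per kb. DTX1, another target, was at 0.268 mean normalized counts.

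RBPJ binds the sequence TGGGAA, written here on the strand that carries the core, and the promoters of HES1 and HES4 are shown because both hold it. The sequences come from the RefSeq promoter windows (GRCh38.p14) and begin 250 bases before the RefSeq start of each gene, 5′ to 3′ along the gene, with the core in capitals. The HES1 window lies at chr3:194135898-194136147 on the plus strand and the HES4 window at chr1:1000148-1000347 on the minus strand, where it is shown to 51 bases before that start. The RefSeq start of HES4 lies 75 bases inside the gene as GENCODE draws it, and that of HES1 is the same in both.
HES1: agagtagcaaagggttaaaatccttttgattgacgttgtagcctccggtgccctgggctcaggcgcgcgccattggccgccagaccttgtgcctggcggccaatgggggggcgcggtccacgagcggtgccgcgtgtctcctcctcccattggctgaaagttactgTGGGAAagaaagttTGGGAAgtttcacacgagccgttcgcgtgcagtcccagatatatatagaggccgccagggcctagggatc
HES4: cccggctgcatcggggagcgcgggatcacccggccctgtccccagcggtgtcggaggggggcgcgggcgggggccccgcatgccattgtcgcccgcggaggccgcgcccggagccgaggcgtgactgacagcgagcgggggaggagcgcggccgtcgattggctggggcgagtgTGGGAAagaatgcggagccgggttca
HES1 held 2 matches, beginning 84 and 70 bases before the start, both in the direction of the gene and 14 bases apart. HES4 held 1 match in the same direction, beginning 76 bases before the RefSeq start and thus reaching across the GENCODE start. In a comparison made after the windows were seen, the longest stretch common to these windows was tgTGGGAAagaa (12 bases), which began 86 bases before the start in HES1 and 78 bases before it in HES4. It occurred in 7 of the 27305 promoter windows, HES1 and HES4 included. Since both windows were shown for holding the core, they share those 6 of its bases by choice. How long a stretch other windows with the core have in common was not tested.

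Windows of 300 bases, reaching 50 bases past the RefSeq start, were found for 9 of the 10 members, the exception being HEY1. TGGGAA was present on either strand in 3 of the 9, namely HES1, HES4 and LFNG, and in 24.3% of all windows. Counting the bases before the start alone, it was in 2 of the 9 and in 21.1% of all windows, so its frequency among the members was near that of promoters in general. Windows with 2 or more matches, as in HES1, made up 3.81% of the total. The E box CACGTG, a site of many helix-loop-helix proteins, was in none of the 9 member windows and in 7.43% of all windows. The N box CACNAG, which HES proteins bind, was in 5 of the 9 and in 38.0% of all windows. Before the start alone, it was in 3 of the 9 and in 32.0% of all windows. HES1 alone held 4 matches in its whole window, and windows with 3 or more made up 1.53% of the total. A match gives the letters only, and the absence of one covers only this window.

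The members also differed in base composition at the start. GC content was above the median of all windows (58.3%) in 8 of the 9 members with a window. The JAG2 window had 79.7% GC and 46 CpG dinucleotides, and those of NOTCH3 and NOTCH1 had 78.3% and 77.0% GC. The window of RBPJ was the exception, with 35.7% GC and no CpG, against a median of 14 CpG over all windows. The RefSeq start used for RBPJ lies 3 bases inside the outer end of the gene's GENCODE span of 272 kb, and that of NOTCH2 lies 31117 bases inside. Other starts of these genes were not examined, so the composition given for each holds for the start used only.

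RBPJ, on chromosome 4 from 26163455 to 26435131, is bound to DNA also without NOTCH and then recruits corepressors. Its mean normalized count was 4283. Per kb of merged exons it was at 280, 1.01-fold of NOTCH2, but the merged exons of RBPJ sum to 15.311 kb whereas its coding sequence has 1461 bases. Its level was 794 per kb of the canonical transcript and 2932 per kb of coding sequence, a 10.5-fold range across lengths that no other member reached. HEY1 followed with a 6.02-fold range, and NOTCH3 had the narrowest, 1.35-fold. Pseudogenes of RBPJ share 1.46% of the 50-base stretches of its canonical transcript.

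**Figure D3:**
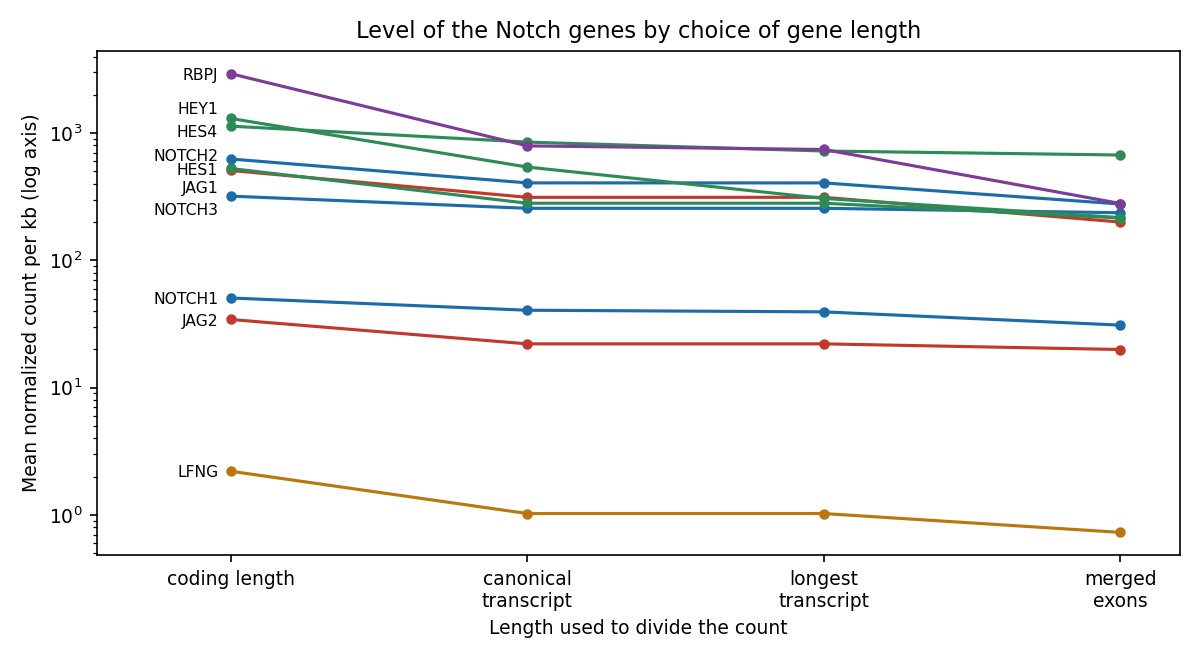
Level of the 10 Notch genes per kb (log axis) when the authors' mean normalized count is divided by the coding length, the canonical transcript, the longest transcript or the merged exons. RBPJ falls from 2932 to 280 per kb and HEY1 from 1304 to 217, whereas NOTCH1, JAG2 and LFNG stay the lowest at each length.

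The partners of RBPJ in the nucleus are coactivators and corepressors. Of 9 genes of the nuclear complex, RBPJ included, 8 reached a mean normalized count of 1000, as did 27.9% of all listed genes. MAML1 and MAML2 were at 354 and 238 per kb, whereas MAML3 was at 1.72 mean normalized counts. The corepressor genes SPEN and KDM5A were at 243 and 219 per kb, and HDAC1 was at 836 per kb. SNW1, which also serves in splicing, was at 1628 per kb of merged exons. Per kb of coding sequence, RBPJ at 2932 was well above MAML1 at 693, KDM5A at 520, MAML2 at 488 and SPEN at 334. SNW1 at 2463 and HDAC1 at 2292 came nearer to RBPJ on that scale. Per kb of the canonical transcript, SNW1 at 1860 and HDAC1 at 1565 were above RBPJ at 794. Per kb of merged exons, SNW1, HDAC1, MAML1 and CIR1, a further gene of the complex at 326, were above RBPJ at 280.

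All 8 protease genes counted reached a mean normalized count of 50, as did 58.9% of all listed genes. The sheddases ADAM10 and ADAM17, which make the first ligand-induced cut, were at 290 and 212 per kb of merged exons and at 416 and 772 per kb of the canonical transcript. The γ-secretase genes described here, whose products make the second, ranged from 16.9 per kb of merged exons for PSEN2 to 1288 for APH1A. Per kb of the canonical transcript, PSEN2 was at 123, and APH1B was the lowest at 84.2. NCSTN and PSENEN, which encode further subunits, were at 559 and 1111 per kb. FURIN, which cuts the receptor on its way to the surface, was at 49.0 per kb.

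Of 13 genes of trafficking and turnover, 12 reached a mean normalized count of 10, as did 68.5% of all listed genes. MIB1, the ubiquitin ligase that starts ligand endocytosis, was at 255 per kb. NEURL1, a ligase with the same role, was at 0.268 mean normalized counts. ITCH and FBXW7, which target receptors for degradation, were at 323 and 42.7 per kb, and NUMB, an inhibitor of the pathway, was at 251 per kb. Over the 54 pathway genes counted, 53 were in the table and 42 reached a mean normalized count of 10, which 68.5% of all listed genes reached.

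**Figure D4:**
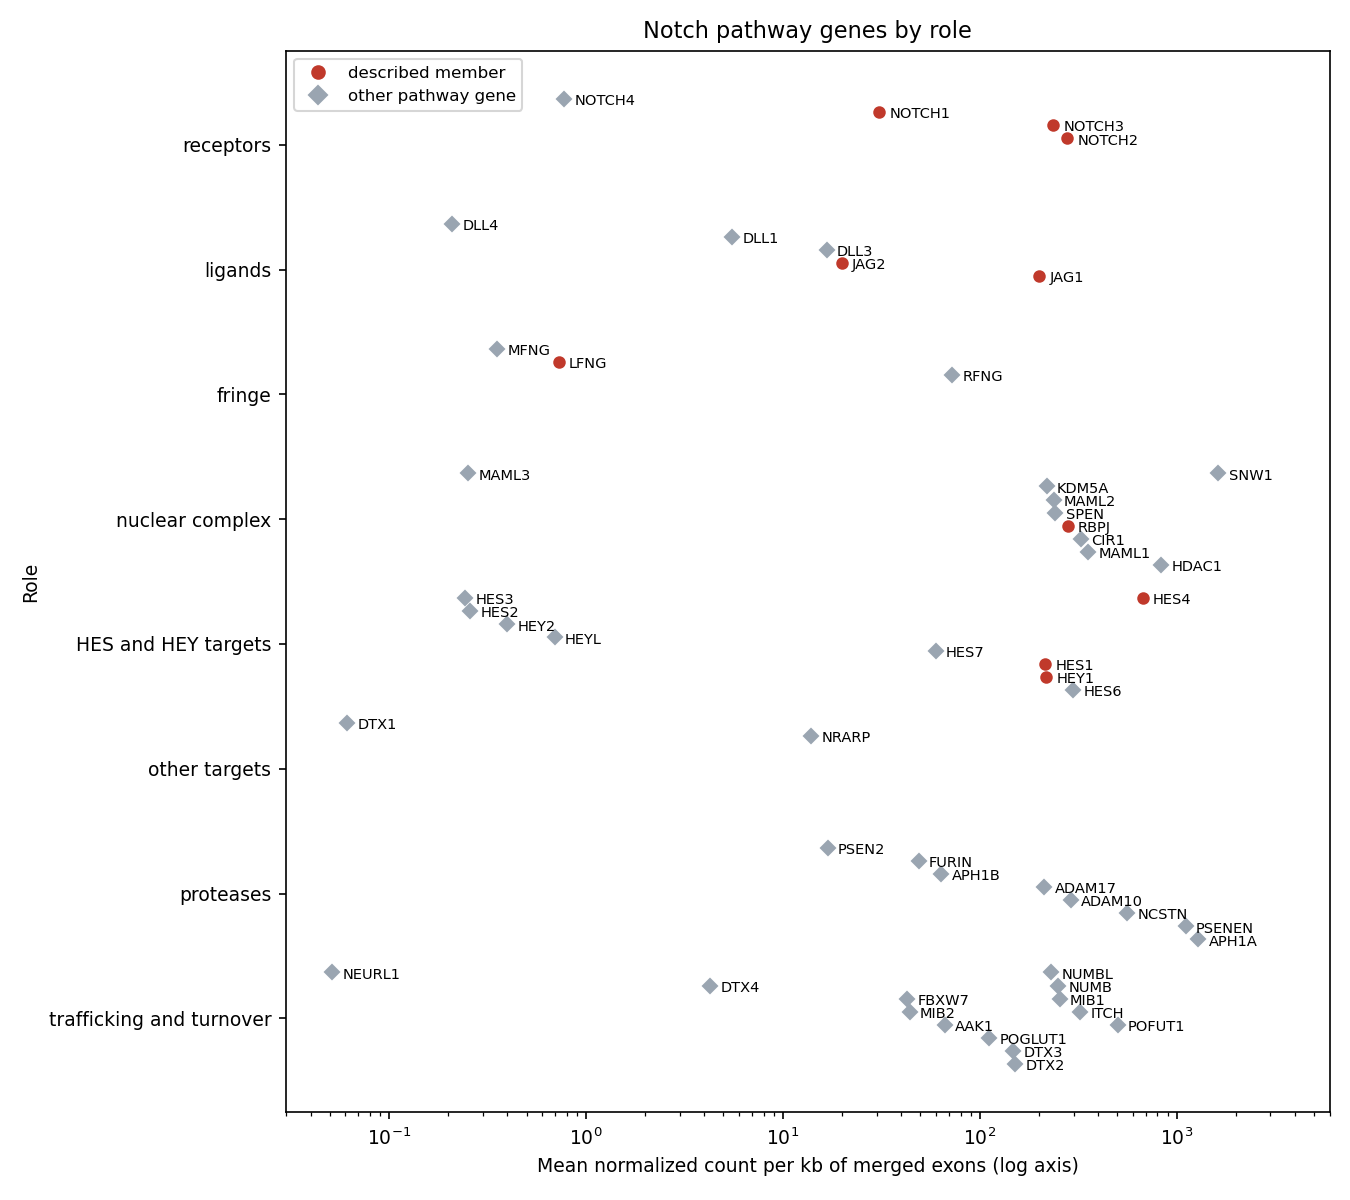
Level per kb of merged exons (log axis) of the 53 listed Notch pathway genes, arranged by role, with the described members as circles and the other genes as diamonds. The 4 receptors run from 0.773 to 277 per kb and the 5 ligands from 0.209 to 199.9 per kb, while 8 of the 9 nuclear complex genes lie between 219 and 1628 per kb.

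Per kb of merged exons, the order of the members was HES4, RBPJ, NOTCH2, NOTCH3, HEY1, HES1, JAG1, NOTCH1, JAG2 and LFNG. The lower end of this order, NOTCH1 before JAG2 before LFNG, was the same at each of the 4 lengths used. Above it, neighbors such as RBPJ and NOTCH2 or HEY1 and HES1 differed by 1.01-fold per kb of merged exons. Without values of single libraries, no spread can be set against such differences.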

How the data were processed

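Total RNA from triplicate cultures was made into stranded poly(A) libraries (TruSeq Stranded mRNA). The authors aligned the reads to GRCh38 with STAR and normalized the gene counts with DESeq2. The labels name a column kit for RNA extraction and the article names Trizol. The gene counter and low-count filter are not given in the sources used here, and for the annotation there is only a suffix to the name of the genome, which may stand for a release. The deposited table has 1 row per gene symbol. Its signal column, which the authors took with DESeq2, averages normalized counts over all libraries of both groups and is not divided by length. Its other columns (log2 fold change, standard error, statistic, p-value and adjusted p-value) are the authors' own comparison and were not used. No column belongs to a single library, so no test of DOX, no replicate error and no depth could be had here, although the design had provided for a count test.

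Symbols were matched to GENCODE 44 directly (17921 genes) or through RefSeq synonyms (705), and 1166 did not match. Levels per kb used merged exons. Percentiles give the share of other genes with a lower value. Promoter windows came from RefSeq (GRCh38.p14). The genes named were the members, WDR5, the cell type markers and a Notch pathway list. Members and lists were chosen with earlier results of these data known. NBPF and NOTCH2NL genes were named after the values were seen. The percentile and motif steps were tested on simulated data. Some genes of that list are not reported here. A comparison of protein sequences was not run. Scripts ran in Python 3.11.15 with pandas 2.3.3, numpy 2.4.6 and scipy 1.17.1, and with matplotlib 3.10.9 for plots.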

Additional observations from a re-analysis of the deposited data

How the results depend on the processing

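No paired analysis was possible because the table holds no value of a single library, and for the same reason leaving out a replicate, other normalizations and other count tests were not run. The number of members detected was 9 with a threshold of 10 on the mean normalized count, 10 with a threshold of 1 and 9 with a threshold of 50. For the pathway list these numbers were 42, 49 and 38. The members with TGGGAA were 3 with the whole window and 2 with the bases before the start alone, an alternative chosen after seeing the data, as were the longest and canonical transcripts and the order of the members by coding length. Percentiles of the undivided count depend on the genes they are set among. NOTCH3 was at 85.2 among all listed genes, at 82.3 among those with a count of 1 or more and at 78.3 among those with 10 or more. The order of the members per kb changed in place for 5 genes without division by length, for 7 with coding length and for 4 with either transcript. The share of NOTCH2 among receptors ranged from 50.8% to 63.9%, and that of NOTCH3 from 30.7% to 43.4%. Depth could not be set beside any value, and the low values of LFNG, NOTCH4 and DLL4 do not show absence of the RNA.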
